A study of Macaca mulatta with 5 samples.

Results

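NOVA1 was examined as a single gene, defined by all transcripts that carry the gene identifier ENSMMUG00000004271 in the deposited tables. This rule found 3 of 51763 transcripts and 1 of 28633 gene identifiers, and a table of gene names pairs the identifier with the symbol NOVA1. The data are strand-specific poly(A)-positive RNA-Seq libraries of cerebellum, kidney, lung, heart and spleen of male rhesus macaque (Macaca mulatta), with 1 library per tissue and no replicates. Cerebellum, kidney, lung and heart are described as tissues of a single animal, whereas the animal that gave the spleen, the ages and any treatment are not given in the sources used here. The read number of each transcript and the RPKM, i.e. the reads scaled to the exon length in kilobases and to the properly mapped reads of the library, were deposited for every library. Properly mapped reads ranged from 48306898 in kidney to 81517974 in cerebellum. The reads summed over transcripts were 47.9% of the properly mapped reads in heart and 71.3% to 91.5% in the other 4 libraries. The markers of each organ were highest in the library of that name for kidney (5 of 5), lung (6 of 6), heart (4 of 4) and spleen (5 of 5). The 10 neuron markers were all highest in cerebellum, as were 5 of 6 cerebellum markers, CALB1 being higher in kidney. With 1 library per tissue no test between tissues was possible. The intervals given below are exact 95% intervals for the number of reads, cover counting error only, and are too narrow if both mates of a read pair were counted.

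NOVA1 encodes an RNA-binding protein with KH domains that recognizes clusters of short pyrimidine-CA-pyrimidine elements in pre-mRNA. It is known in neurons as a regulator of alternative splicing, in which the position of these elements relative to an exon decides whether the exon is included or skipped, and as an antigen in a paraneoplastic disorder of movement control. Its mRNA is also a substrate of ADAR, the enzyme family that converts adenosine to inosine, and this study lists NOVA1 among the genes in which such editing replaces a serine codon by a glycine codon. The tables analysed here hold no editing levels, so editing at this site was not analysed here.

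The 3 transcripts of NOVA1 lie on chromosome 7 of rheMac2 and share most of their span but differ in exon length, and are called here the long, the middle and the short transcript. The long transcript (IMMRT10011016967) runs from 89328937 to 89480095 with 3405 bp of exon. The middle transcript (IMMRT10000016968) runs from 89330683 to 89479960 with 1452 bp of exon, and the short transcript (IMMRT10000016966) from 89353518 to 89479960 with 546 bp of exon. Exons are thus 2.25% of the 151 kb span of the long transcript, the remainder being intron. The files give neither exon coordinates nor strand, so exons, introns and UTRs could not be placed within the span. The recoding site lies 365 bp inside the low-coordinate end of the middle transcript and 2111 bp inside that of the long transcript. It lies 22.5 kb outside the span of the short transcript, so only the long and the middle transcript can contain it.

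**Figure D1:**
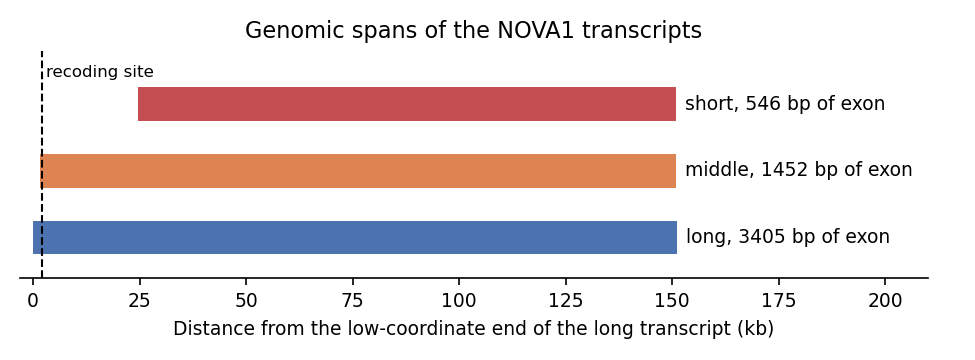
Genomic spans of the 3 NOVA1 transcripts, drawn as bars against the distance in kb from the low-coordinate end of the long transcript, with the recoding site as a dashed line. The bars end within 1 kb of each other on the right, and the short transcript begins 22.5 kb beyond the site.

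No transcript of another gene and no transcript without a gene identifier overlapped the NOVA1 span, which leaves the reads of this locus free of an annotated overlapping or antisense partner. The nearest transcript on the high-coordinate side began 732 bp away (89480828 to 89543172, no gene identifier) and had 0 reads in all 5 libraries. The nearest transcript on the low-coordinate side was 249 kb away (89069568 to 89080361, no gene identifier) and had 88 reads in lung (1.28 RPKM) and 0 reads in the other 4 libraries. The nearest gene identifiers were 623 kb away on the low side and 839 kb away on the high side. The former had 0 reads in every library, and the latter was highest in spleen (19.9 RPKM) and lowest in cerebellum (2.42 RPKM), which is the opposite order of tissues from NOVA1 at both ends.

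NOVA1 was highest in cerebellum, followed at a distance by lung, and was close to the lowest measurable level in spleen. The long transcript had 13389 reads in cerebellum and 1687 in lung, followed by kidney with 170, heart with 116 and spleen with 13. As RPKM, this was 48.2 in cerebellum (95% interval 47.4 to 49.1) and 6.37 in lung (6.07 to 6.68), with 1.03 in kidney (0.884 to 1.20), 0.538 in heart (0.445 to 0.645) and 0.0569 in spleen (0.0303 to 0.0973). For this transcript the 5 intervals were all separate from each other. For comparison, 3 reads on the long transcript, taken as the smallest number that can be read as a level, correspond to 0.0131 RPKM in spleen. In these bulk samples, fewer cells that express NOVA1 and less NOVA1 mRNA per cell cannot be told apart.

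The middle and the short transcript gave the same first, second and last tissue. The middle transcript had 4859 reads in cerebellum and 604 in lung, with 51 in kidney, 58 in heart and 6 in spleen, which is 41.1, 5.35, 0.727, 0.631 and 0.0616 RPKM in this order. The short transcript had 2570, 219, 25, 31 and 4 reads, i.e. 57.7, 5.16, 0.948, 0.897 and 0.109 RPKM. For both, kidney and heart did not differ beyond counting error, with a ratio of 1.15 (95% interval 0.775 to 1.71) for the middle and 1.06 (0.598 to 1.85) for the short transcript. After scaling by the upper quartile or by TMM, however, kidney was lower than heart on both, with ratios of 0.570 and 0.511 on the middle and 0.523 and 0.469 on the short transcript. On the long transcript kidney exceeded heart 1.92-fold (1.51 to 2.45), but heart was the higher of the 2 after scaling each library by its upper quartile (ratio of kidney to heart 0.950) or by TMM (0.852). The upper quartile of RPKM was lowest in heart, at 3.99 against 7.04 to 9.85 in the other libraries. The order of kidney and heart therefore depends on the transcript and on the scaling, whereas cerebellum, lung and spleen kept their places with all 3 transcripts and all 4 scalings (deposited RPKM, upper quartile, TMM and TPM).

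**Figure D2:**
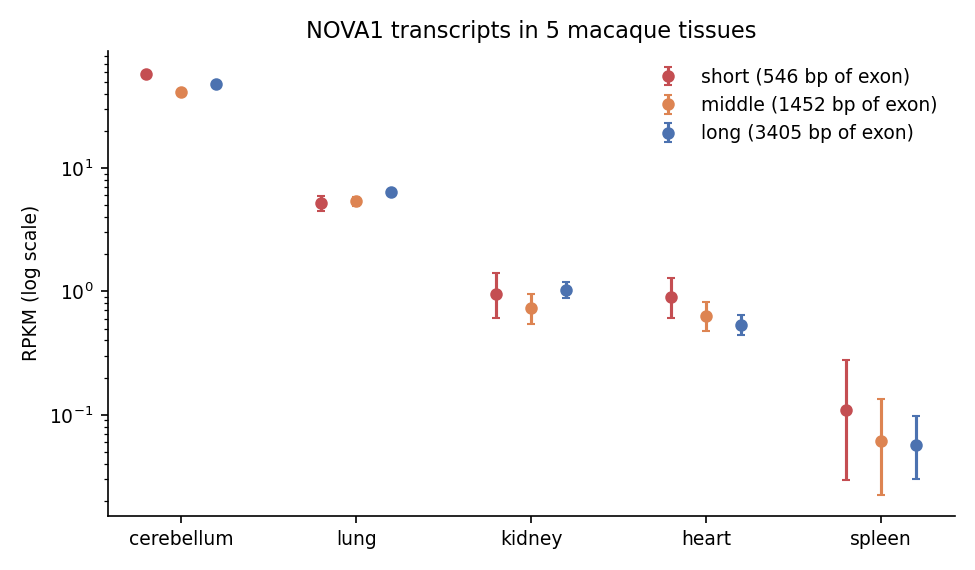
RPKM of the 3 NOVA1 transcripts (colours) in the 5 libraries on a log axis, with exact 95% intervals of the read number as bars, which cover counting error only. The transcripts lie between 41.1 and 57.7 RPKM in cerebellum and between 5.16 and 6.37 RPKM in lung, under 1.1 RPKM in kidney and heart, and at or under 0.11 RPKM in spleen.

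The size of the difference between cerebellum and lung depended on the transcript. The ratio of cerebellum to lung was 7.57 (95% interval 7.20 to 7.97) on the long transcript, 7.68 (7.05 to 8.37) on the middle transcript and 11.2 (9.75 to 12.9) on the short transcript. The ratio of cerebellum to kidney was 46.7 (40.1 to 54.6) on the long and 60.9 (41.2 to 94.3) on the short transcript. Against heart these values were 89.7 (74.7 to 109) and 64.4 (45.3 to 95.0), and against spleen 848 (496 to 1593) and 529 (206 to 1943). Lung in turn exceeded the next lower tissues clearly, with a ratio to kidney of 6.16 (5.26 to 7.26), to heart of 11.8 (9.80 to 14.4) and to spleen of 112 (65.3 to 211) on the long transcript. Spleen was below heart 9.46-fold (5.32 to 18.3) on the same transcript. The ratios also depended on the scaling. Cerebellum to lung on the long transcript was 9.59 with the upper quartile, 10.5 with TMM and 10.1 with TPM. The ratios that involve heart moved as well. On the long transcript lung to heart was 5.31 with the upper quartile and 4.49 with TMM, and heart to spleen was 23.3 and 25.8.

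The reads of the shorter transcripts were then set against those of the long one within each library, in order to ask whether the tissues use the same parts of the gene. Transcripts of a gene can carry the same reads in these tables. The share is therefore given as reads of the shorter transcript per 100 reads of the long one, with an exact binomial interval that treats the former as part of the latter. The short transcript had 19.2 reads per 100 in cerebellum (18.5 to 19.9) and 13.0 in lung (11.4 to 14.7), with 14.7 in kidney (9.75 to 20.9), 26.7 in heart (18.9 to 35.7) and 30.8 in spleen (9.09 to 61.4). Its exon length is 16.0% of that of the long transcript, so cerebellum and heart lay above and lung lay below the value that even coverage would give, and the intervals of kidney and spleen included it. For the middle transcript the values were 36.3 in cerebellum (35.5 to 37.1) and 35.8 in lung (33.5 to 38.1), with 30.0 in kidney (23.2 to 37.5), 50.0 in heart (40.6 to 59.4) and 46.2 in spleen (19.2 to 74.9), beside a length share of 42.6%. Cerebellum and lung thus differed in the share of the short transcript, beyond counting error in these 2 libraries, and did not differ beyond it in the share of the middle transcript.

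If each read was counted on every transcript that it matches, which the sources used here do not state, at least 8530 reads in cerebellum and 1083 in lung, besides 119 in kidney, 58 in heart and 7 in spleen, fell on exons of the long transcript that the middle transcript lacks. Under the same condition at least 2289 reads in cerebellum and 385 in lung lay on the middle transcript outside the short one. Expression in cerebellum and lung would then not be limited to the short transcript, which cannot contain the recoding site. As a background for the short transcript, the shortest and the longest transcript were compared in the same way in 4398 other genes with at least 100 reads on both transcripts in both libraries. On the log2 scale, the ratio of the short to the long transcript of NOVA1 was higher in cerebellum than in lung by 0.56. The median of the absolute difference over the other genes was 0.10, and 540 of them (12.3%) had one at least as large as NOVA1.

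**Figure D3:**
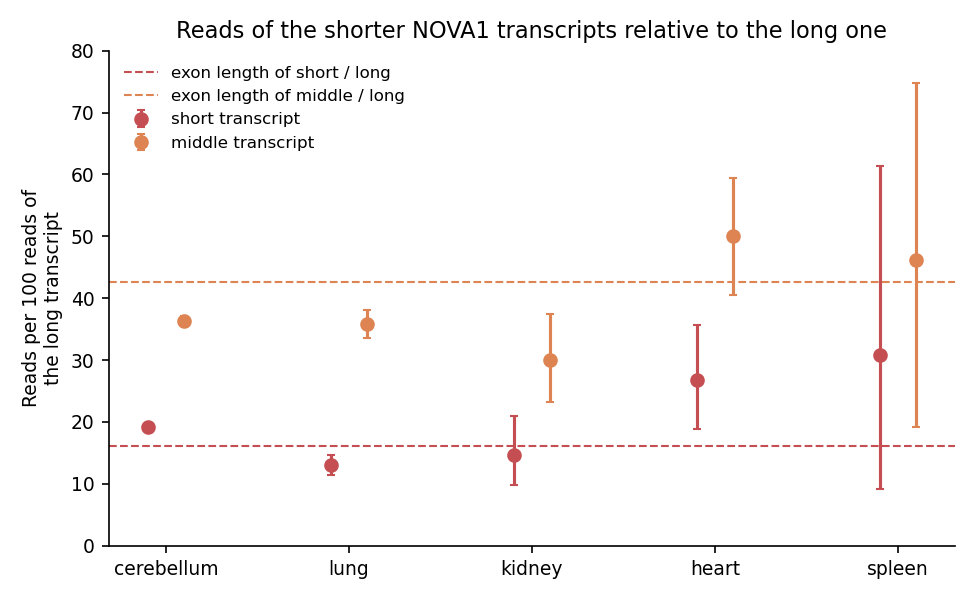
Reads of the short and the middle NOVA1 transcript per 100 reads of the long one in each library, with exact 95% binomial intervals as bars, and the corresponding share of exon length as dashed lines (16.0% and 42.6%). The short transcript lies at 19.2 in cerebellum and at 13.0 in lung, and the bars of heart and spleen are wide.

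Relative to all genes, NOVA1 stood near the top in cerebellum, above the middle of the genes with reads in lung, and in the lower part in kidney, heart and spleen. Genes were represented by their transcript of highest summed RPKM, which for NOVA1 is the short one. Among the 28633 gene identifiers, the short transcript ranked 470 in cerebellum, and the long transcript would rank 595. The long transcript exceeded 96.6% of the genes with reads in cerebellum and 62.9% in lung, with 31.6% in kidney, 31.9% in heart and 6.56% in spleen. A gene was called higher in cerebellum if its RPKM there was at least 10 times the highest value of the other 4 tissues, among genes with at least 1 RPKM in at least 1 tissue. By this rule 646 of 15688 genes were called (4.12%). On the deposited RPKM, NOVA1 was called with the short transcript (11.2 times the level in lung) and was not called with the middle (7.68 times) or the long transcript (7.57 times), because of its level in lung. This depended on the scaling. The middle transcript exceeded 10 times with TMM (10.7) and TPM (10.2), as did the long one (10.5 and 10.1). With the upper quartile neither did (9.72 and 9.59 times). On the deposited RPKM the place of NOVA1 among the called genes, by its short transcript, was near the limit, with only 34 of 646 at a lower ratio, beside a median ratio of 39.9 over the called genes that had reads elsewhere. By a rule added after its values had been seen, lung at no less than 5 times the highest of kidney, heart and spleen, NOVA1 was among 623 of 15688 genes (3.97%), with a ratio of lung to kidney of 5.44 on the short and 6.16 on the long transcript. With the other scalings the short transcript no longer met this rule, its ratio of lung to heart being 2.58 with the upper quartile, 2.18 with TMM and 3.78 with TPM. The long transcript met it with the upper quartile and TPM but not with TMM (lung to heart 4.49).

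NOVA1 was next set beside other regulators of splicing. Of 18 regulators known to be enriched in brain, 15 could be matched to an identifier with a symbol, and 8 of these were called higher in cerebellum (4.12% of all genes). These are genes chosen for their presence in brain, so their number is a description only. The 8 were RBFOX3, the nuclear antigen NeuN of mature neurons, ELAVL2, ELAVL3 and ELAVL4 of the neuronal Hu family, CELF3, CELF4 and CELF5, and SRRM4, an activator of neuronal microexons. RBFOX3 had 93.5 RPKM in cerebellum, 0.406 in lung, 0.320 in spleen, 0.0897 in heart and 0 in kidney. ELAVL3 reached 31.9 RPKM in cerebellum beside 0.164 in heart and 0.0277 in lung, and had no reads in kidney and spleen. CELF3, at 33.5 RPKM in cerebellum, did not exceed 0.167 in another tissue, and SRRM4, at 11.2 RPKM, did not exceed 0.136. In lung these 8 genes ranged from 0 to 0.406 RPKM, whereas the NOVA1 transcripts had 5.16 to 6.37 RPKM. The call requires cerebellum at 10 times the level of lung or more. Given their levels in cerebellum, this alone keeps these genes below NOVA1 in lung, except RBFOX3. Their place below NOVA1 in lung is therefore no separate result. Of all 15 regulators, MBNL2, CELF6 and RBFOX2 were above the long NOVA1 transcript in lung.

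The 7 regulators that were not called differed among each other. RBFOX2, which is widely expressed, had 52.4 RPKM in cerebellum and 21.9 in lung. RBFOX1, a regulator of neuronal and muscle exons, had 47.0 RPKM in cerebellum and 8.40 in heart but 0.282 in kidney, 0.147 in lung and 0.0218 in spleen. Its second tissue was therefore heart, whereas that of NOVA1 was lung. PTBP2, the form of the polypyrimidine tract binding protein that dominates in developing neurons, had 7.52 RPKM in cerebellum and 4.56 in lung. KHDRBS3, MBNL2 and CELF6 were lower in cerebellum than in at least 1 other tissue. CELF6 had 7.86 RPKM in cerebellum and 44.4 in spleen, and its span is overlapped by that of another gene, as are those of MBNL2 and ELAVL3, so that these values are uncertain.

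NOVA2, the paralog of NOVA1, was much lower in cerebellum and differed less between cerebellum and lung. It had 4.13 RPKM in cerebellum and 3.88 in lung, with 0.920 in kidney, 0.526 in heart and 0.276 in spleen. Its gene model holds only 540 bp of exon. On this scale, which is per length of exon, NOVA1, read from its short transcript, was the higher one in cerebellum and lung, and in kidney both were close (0.948 and 0.920 RPKM). NOVA1 was also the higher one in heart and NOVA2 in spleen. These 2 comparisons rest on few reads, 31 for NOVA1 and 18 for NOVA2 in heart, and 4 and 10 in spleen, so they are uncertain. On the deposited RPKM both genes were highest in cerebellum, followed by lung, and lowest in spleen, but cerebellum exceeded lung only 1.07-fold for NOVA2 (182 and 163 reads). The order of kidney and heart is open for both, as it depended on the scaling for NOVA1 and rests on 24 and 18 reads for NOVA2. How reads that match both paralogs were counted is not given in the sources used here.

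Among 4 matched relatives with KH domains of the same type, 1 was called higher in cerebellum, beside 4.12% of all genes. This was PCBP3, with 28.1 RPKM there and 0.830 in lung. PCBP4 had 207 RPKM in cerebellum and 20.9 in lung, and its ratio of 9.89 was just under the limit. PCBP2 and HNRNPK were expressed in all 5 tissues, with at least 7.45 and 32.8 RPKM. The spans of PCBP3 and HNRNPK are each overlapped by that of another gene, so that their values are uncertain. Of 13 matched broadly expressed splicing regulators, 0 were called, which at a background of 4.12% does not set them apart from other genes. NOVA1 was above all 13 in cerebellum and below all 13 in kidney, heart and spleen, and in lung it was above 1 of them, SRSF2, at 3.05 RPKM. The span of SRSF2 is overlapped by that of another gene, so that its value is uncertain. PTBP1, a repressor of neuronal exons, was highest in spleen, where NOVA1 was lowest, with 62.8 RPKM, followed by lung with 54.5 and kidney with 43.1, and had 12.6 RPKM in cerebellum and 8.94 in heart.

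**Figure D4:**
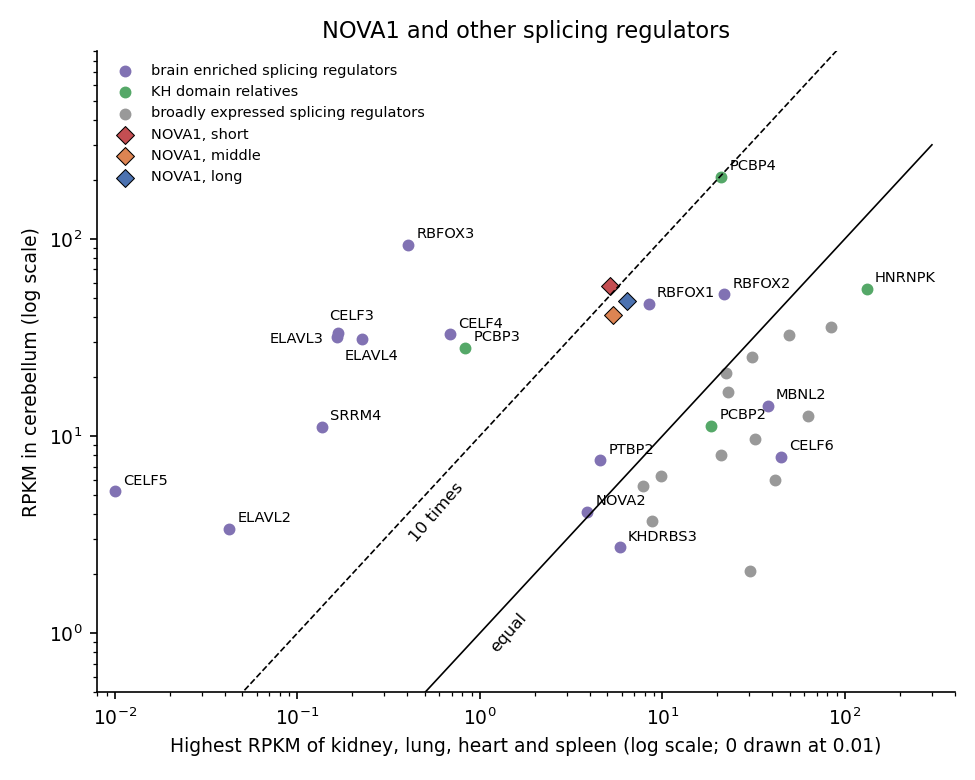
RPKM in cerebellum against the highest RPKM of the other 4 tissues, both on log axes, for the 3 NOVA1 transcripts (diamonds) and for 3 groups of splicing regulators (circles), with lines at equal levels and at 10 times. The NOVA1 diamonds lie on both sides of the line at 10 times, between the 8 neuronal regulators on the left and the broadly expressed genes, none of which is above the equal line. CELF5, with 0 reads outside the cerebellum, is drawn at 0.01.

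The genes whose transcripts are known targets of NOVA-regulated splicing were mostly present in several tissues. All 10 listed genes were matched, and 3 were called higher in cerebellum, beside 4.12% of all genes. Among these were GLRA2, a glycine receptor subunit, with 5.71 RPKM in cerebellum, and KCNJ6, an inwardly rectifying potassium channel, with 5.04. Outside the cerebellum GLRA2 reached 0.0200 RPKM and KCNJ6 0.0214. CLSTN1, GPHN, MAPK9 and DAB1 were also highest in cerebellum but by less, from 1.26-fold for GPHN to 3.99-fold for DAB1 over the next tissue. APLP2, AGRN and NEO1 were higher in another tissue. AGRN, which organizes the neuromuscular junction, had 2.04 RPKM in cerebellum, 23.0 in kidney and 21.1 in lung, and NEO1, a netrin and RGM receptor, had 4.68 in cerebellum and 21.5 in lung. The tables do not resolve the regulated exons of these genes, so whether their splicing follows NOVA1 was not tested.

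As the recoding of NOVA1 is catalysed by ADAR enzymes, their levels are given beside it. ADARB1 (ADAR2) followed the same first and second tissue as NOVA1, with 21.4 RPKM in cerebellum, 13.2 in lung, 2.66 in spleen, 1.71 in kidney and 0.608 in heart. ADAR (ADAR1) was highest in spleen, at 43.9 RPKM, the tissue with the lowest NOVA1, and had 16.9 RPKM in cerebellum. ADARB2 stayed under 1 RPKM in all 5 tissues, with 0.748 in cerebellum. Of 23 genes in which the study verified coding sites, 19 could be matched by symbol. ARIH2, BLCAP, KCNA1 and XKR6 could not, so the ranks leave them out. In cerebellum NOVA1 ranked second among these 19 with each of the short and the long transcript, behind GRM4, a metabotropic glutamate receptor, at 69.1 RPKM. In lung NOVA1 ranked 13, in heart 14 and in kidney 15 with either transcript, and in spleen 15 with the short and 16 with the long one.

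Since NOVA1 is a neuronal gene, neuronal transcripts in the other libraries were measured to set its level there into context. As a percentage of the cerebellum level, NOVA1 had 13.2% in lung, followed by 2.14% in kidney, 1.12% in heart and 0.118% in spleen on the long transcript, and 8.93%, 1.64%, 1.55% and 0.189% on the short one. In lung, the 10 neuron markers had a median of 0.348% of their cerebellum level. SNAP25, a protein of synaptic vesicle fusion, stood at 0.0866% there and STMN2, a stathmin of growing axons, at 0.0493%, and 8 of 10 were under 1%. The exceptions were ENO2 at 1.12% and MAP2, a microtubule-associated protein of dendrites, at 29.6% (37.3 RPKM in cerebellum and 11.0 in lung). The spans of the neuron markers MAP2 and SYT1 are each overlapped by those of 2 other genes, and that of TUBB3 by that of 1, so that their values are uncertain. Of the 6 cerebellum markers, ZIC1, CBLN1 and GABRA6 were at 0 in lung and in kidney. The other 3 had reads in both, CBLN3 at 0.157%, CALB1 at 1.11% and PVALB at 1.16% of their cerebellum level in lung, and at 0.0948%, 450% and 10.6% in kidney. The summed RPKM of the neuron markers was 2803 in cerebellum and 18.3 in lung, with 6.13 in kidney, 11.9 in heart and 19.1 in spleen. Single genes made up most of the sums in spleen (ENO2, 15.6 RPKM) and lung (MAP2, 11.0 RPKM). NOVA1 in lung was thus at a higher percentage of its cerebellum level than 9 of 10 neuron markers and all 6 cerebellum markers.

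Heart differed from lung and kidney in this respect. All 6 cerebellum markers had reads in heart, at 0.0648% to 0.421% of their cerebellum level (median 0.350%), and ZIC1, CBLN1 and GABRA6 had 0.516, 0.810 and 0.174 RPKM there. The neuron markers in heart had a median of 0.510% and reached 1.12% (MAP2). NOVA1 in heart stood at 1.12% to 1.55%, above all 6 cerebellum markers. The part of these cerebellar transcripts in the NOVA1 level of heart was not tested. In spleen, NOVA1 at 0.118% of its cerebellum level was below 5 of 10 neuron markers and 3 of 6 cerebellum markers. In kidney, NOVA1 at 2.14% was below 2 of 10 neuron markers (MAP2 and NEFL) and 2 of 6 cerebellum markers (CALB1 and PVALB).

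**Figure D5:**
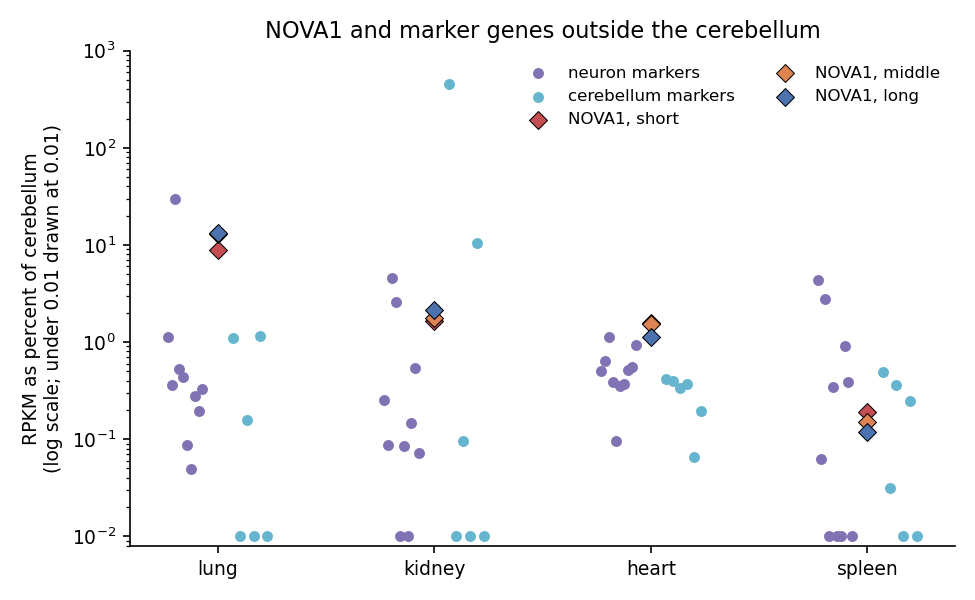
RPKM in lung, kidney, heart and spleen as a percentage of the RPKM in cerebellum on a log axis, for the 3 NOVA1 transcripts (diamonds), 10 neuron markers and 6 cerebellum markers (circles), with values under 0.01% drawn at 0.01. In lung only MAP2 (29.6%) lies above the NOVA1 diamonds, and in kidney the highest point is CALB1.

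Other cell types of these organs were followed by their markers. The 4 endothelium markers were all highest in lung, with a summed RPKM of 279 against 3.60 in cerebellum, and 4 of 5 markers of fibroblasts and smooth muscle were highest in lung as well. The spans of PECAM1 (161 RPKM in lung), PDGFRA and MYH11 are each overlapped by that of another gene, so that their values are uncertain. Among 4 matched markers of peripheral neurons, TH, DBH and PRPH had at most 0.258 RPKM in lung, PRPH being listed at 0 in every library, and CHRNA3 had 0.0275 there. Of 3 matched Schwann cell markers, PMP22, a myelin protein, was highest in lung at 59.7 RPKM, though its span is overlapped by that of another gene. The part of each cell type in the NOVA1 level of lung was not tested.

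Finally, the genes with the tissue pattern most like that of NOVA1 were listed by the Euclidean distance of log2(RPKM + 0.1) over the 5 libraries, as a description, among 15687 other genes. The nearest were RGS11, a regulator of G protein signalling, at a distance of 1.83, APLP1, a relative of the amyloid precursor, at 1.86, PRRT2, a presynaptic membrane protein, at 2.17, MTCL1, a microtubule crosslinking factor, at 2.22, and NAP1L3 at 2.27. They were followed by the synaptic adhesion molecule NRXN3, the axonal kinesin KIF1A, an identifier without a symbol (ENSMMUG00000020760), MMP24 and TCEAL2, at 2.35 to 2.56. The median distance over all genes was 7.77. RGS11 had 33.5 RPKM in cerebellum, 3.43 in lung, 1.12 in heart, 0.825 in kidney and 0.497 in spleen. Lung was the second tissue in 8 of the 10, which their choice by likeness to NOVA1 favours. Among the 615 called genes with reads in a second tissue, this was lung for 157. In all 10 nearest genes the level in lung was lower than that of NOVA1, from 1.06 to 3.67 RPKM. NOVA2 ranked 117 by this distance, RBFOX3 842 and RBFOX1 1013. The list depended on the settings, since only RGS11 stayed among the nearest 10 under every alternative tried, and without spleen 1 of the 10 stayed.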

How the data were processed

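Expression of NOVA1 was analysed in 5 RNA-Seq libraries, 1 per tissue. Libraries were poly(A)-positive, made by the dUTP protocol and sequenced as paired ends. TopHat 1.2.0 is named in the submitters' processing notes. The study describes BWA alignments to rheMac2 for its editing calls, and whether these or others gave the deposited counts, how multiply mapped reads were treated and which tool counted them are not given in the sources used here. The authors deposited read counts per transcript, not normalized, and RPKM values, which the deposited counts, exon lengths and properly mapped read totals give again in every row. Libraries held 48306898 to 81517974 properly mapped reads. Starts were written 1-based. Symbols were available for 15556 of 28633 identifiers (54.3%), and 115 of 133 listed symbols were matched.

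Genes were represented by their transcript of highest summed RPKM, and all 3 transcripts were reported for NOVA1. Intervals were exact Poisson (levels) or Clopper-Pearson (ratios, shares) at 95%, with a floor of 3 reads. No test was made. Genes named are NOVA1, members of the gene lists (up to 6 with the highest cerebellum RPKM, and those that go against their list), the 10 nearest genes and the neighbours on chromosome 7. The gene, lists and comparisons were chosen with earlier results of these data known, and the coding-site genes and the comparison of lung with the other 3 tissues were added later. Whether distances and calls recover planted genes was checked on simulated data with counting noise only, which holds no variation between libraries or animals. Alternatives were other transcripts, pseudocounts, minimum levels, folds, omitted tissues and scalings (upper quartile, TMM, TPM). Python 3.11.15, numpy 2.4.6, pandas 2.3.3, scipy 1.17.1, matplotlib 3.10.9, R 4.3.3 and edgeR 4.0.16 (TMM factors) were used. Values of some list members are not reported here.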

Additional observations from a re-analysis of the deposited data

How the results depend on the processing

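With 1 library per tissue, depth limits kidney, heart and spleen, where the short NOVA1 transcript had 25, 31 and 4 reads, and no replicate could be left out. No paired analysis was possible because each tissue has a single library. Cerebellum stayed above every other tissue under all alternatives. The level differed from that of the short transcript in deposited RPKM by more than its counting interval as follows, except that TPM is another unit and its values are given for completeness. In cerebellum it was 82.2 RPKM with TMM, 198 TPM, 41.1 RPKM on the middle, 48.2 on the long and 147 on the sum of the transcripts, which counts shared reads more than once. In kidney it was 2.57 TPM and 2.71 RPKM on the sum. In lung it was 4.07 RPKM with the upper quartile, 13.2 TPM, 6.37 RPKM on the long transcript and 16.9 on the sum. In heart it was 1.58 RPKM with the upper quartile, 2.42 with TMM, 3.50 TPM, 0.538 RPKM on the long transcript and 2.07 on the sum.

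The ratio of cerebellum to lung was 14.2 with the upper quartile, 15.6 with TMM, 15.0 with TPM, 7.68 on the middle, 7.57 on the long and 8.71 on the sum of the transcripts. With a pseudocount of 1 the ratios were 9.54 to lung, 30.2 to kidney, 31.0 to heart and 53.0 to spleen. The ratio to heart was 36.5 with the upper quartile and 34.0 with TMM. Without a minimum level 1148 genes were called, and 644 with the longest transcript of each gene, an alternative chosen after seeing the data in which NOVA1 is not called. At a fold of 5, 2 of 4 relatives with KH domains were called (5.81% of all genes). At the fold of 10, 1 of 3 ADAR genes was called with TMM (4.44% of all genes) and with TPM (4.95%). This was ADARB2, not ADARB1. On the deposited RPKM its ratio to lung was 10.9, but with 0.748 RPKM in cerebellum it was under the minimum level. Of the 10 nearest genes, 5 stayed with a pseudocount of 1, 2 after centring, 1 without spleen and 6 with the longest transcripts. The cause was not tested.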

Other observations

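A call as higher in cerebellum by itself limits the level in lung, because cerebellum must be at 10 times lung or more. The following counts therefore depend on this rule, and the shares over all genes tested were not taken. Of the 646 called genes, 93 (14.4%) had at least 1 RPKM in lung and 18 (2.79%) had at least 5 RPKM there, NOVA1 being among the latter with its short transcript at 5.16 RPKM, though not after upper quartile scaling (4.07). Among the 615 called genes with reads in a second tissue, this tissue was heart for 192, lung for 157, spleen for 138 and kidney for 128. Of the 623 genes with lung at no less than 5 times the highest of kidney, heart and spleen, 52 were also called higher in cerebellum. Over all genes tested, 646 of 15688 (4.12%) were called. NOVA1 was among the 52 with its short transcript on the deposited RPKM. It was not with the other scalings, under which its ratio of lung to heart was 2.18 to 3.78. These limits were chosen after the values of NOVA1 had been seen, and with 1 library per tissue they describe these libraries only.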
